A study of Mus musculus with 7 samples.

Results

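The 6 genes Sox10, Foxd3, S100b, Fabp7, Erbb3 and Mbp, which mark Schwann cells and other peripheral glia, were followed through the RNA of the newborn mouse incisor epithelium. They are 6 of the 25700 genes in the count files, are a named list with no threshold on measured values, and serve to measure nerve tissue carried along with the epithelium. The 7 libraries each hold the posterior part of the lower incisor dental epithelium of 1 newborn pup (PN0), with left and right incisors pooled after separation in Dispase. K14;Nogo-A pups (K14cre cre/+; Nogo-A fl/fl, replicates 1, 2, 7 and 10) were compared with wild-type pups (replicates 3, 8 and 9). The Cre of the K14;Nogo-A pups is driven by the keratin 14 promoter, so that the Nogo-A-specific part of Rtn4 is lost in epithelium and not by design in nerve or mesenchyme. The study also had another wild-type pup, not analysed here.

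Schwann cells descend from the neural crest and reach the tooth along the sensory and autonomic fibres of the jaw. Sox10 is the transcription factor that specifies the lineage and stays on throughout it, Foxd3 is an earlier neural crest factor kept in Schwann cell precursors, and Fabp7 is a lipid-binding protein of radial glia and early Schwann cells. S100b, a calcium-binding protein, comes on in immature Schwann cells and is also made by chondrocytes. Erbb3 is the receptor through which axonal neuregulin keeps the precursors alive, and is present in many epithelia. Mbp encodes myelin basic protein, and from an upstream start also the golli proteins of cells that make no myelin. The pulp and mesenchyme that surround the epithelium hold the nerve, whereas the epithelium itself has little.

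Library totals lay between 20929207 and 41219439 counts, and the rarest markers had single-digit counts in some libraries. Levels are given as CPM, counts scaled by the TMM-adjusted library size, and all 6 genes passed the filter on low counts. Rtn4 itself, counted over all its transcripts and so no check of the deletion, had 297 to 344 CPM for K14;Nogo-A, against 277 to 346 CPM for wild-type libraries. The 15 epithelium markers summed to 10252 to 11839 CPM for K14;Nogo-A, against 7453 to 11703 CPM for wild-type libraries, so the labelled tissue was present in each. In bulk tissue a lower level can mean fewer cells of a type or less RNA per cell, and these cannot be told apart.

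Sox10, Foxd3, Fabp7 and S100b were low, Mbp and Erbb3 less so, and none of the 6 markers was called different in K14;Nogo-A dental epithelium. Per kilobase of exon the order was Mbp (5.91 ± 0.258 CPM per kb for K14;Nogo-A, against 5.61 ± 0.971 for wild-type, SD, n = 4 and 3), then Erbb3 (3.26 ± 0.280 and 2.97 ± 0.208), S100b (1.62 ± 0.792 and 2.01 ± 0.693), Fabp7 (0.799 ± 0.347 and 1.33 ± 0.439), Sox10 (0.287 ± 0.166 and 0.494 ± 0.383) and Foxd3 (0.204 ± 0.161 and 0.184 ± 0.174). The ranges of mean ± SD of Mbp and Erbb3, and of Erbb3 and S100b, were apart in both genotypes, whereas those of S100b and Fabp7 and those of Sox10 and Foxd3 overlapped in both, and those of Fabp7 and Sox10 touched in K14;Nogo-A. On the same scale the basal keratin Krt14 stood at 1393 ± 105 CPM per kb for K14;Nogo-A, against 1128 ± 355 for wild-type, and the endothelial gene Pecam1 at 5.70 ± 1.47 and 7.91 ± 0.838. Of the 6 genes, 0 passed edgeR's quasi-likelihood test at a Benjamini-Hochberg adjusted p of 0.05, where 0.0338% of the 14791 genes tested did, and 0 passed at an unadjusted P of 0.05, where 12.9% did. At the study's thresholds (an unadjusted edgeR P up to 0.05 together with an absolute log2 fold change from 0.5 up) 0 of 6 passed, against 4.77% of all genes tested. After adjustment limma-voom called 0 of 6, and DESeq2 0 of the 4 to which it gave an adjusted p (not Sox10 and Foxd3), and at an unadjusted P of 0.05 they gave 1 (Fabp7) and 0.

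**Figure D1:**
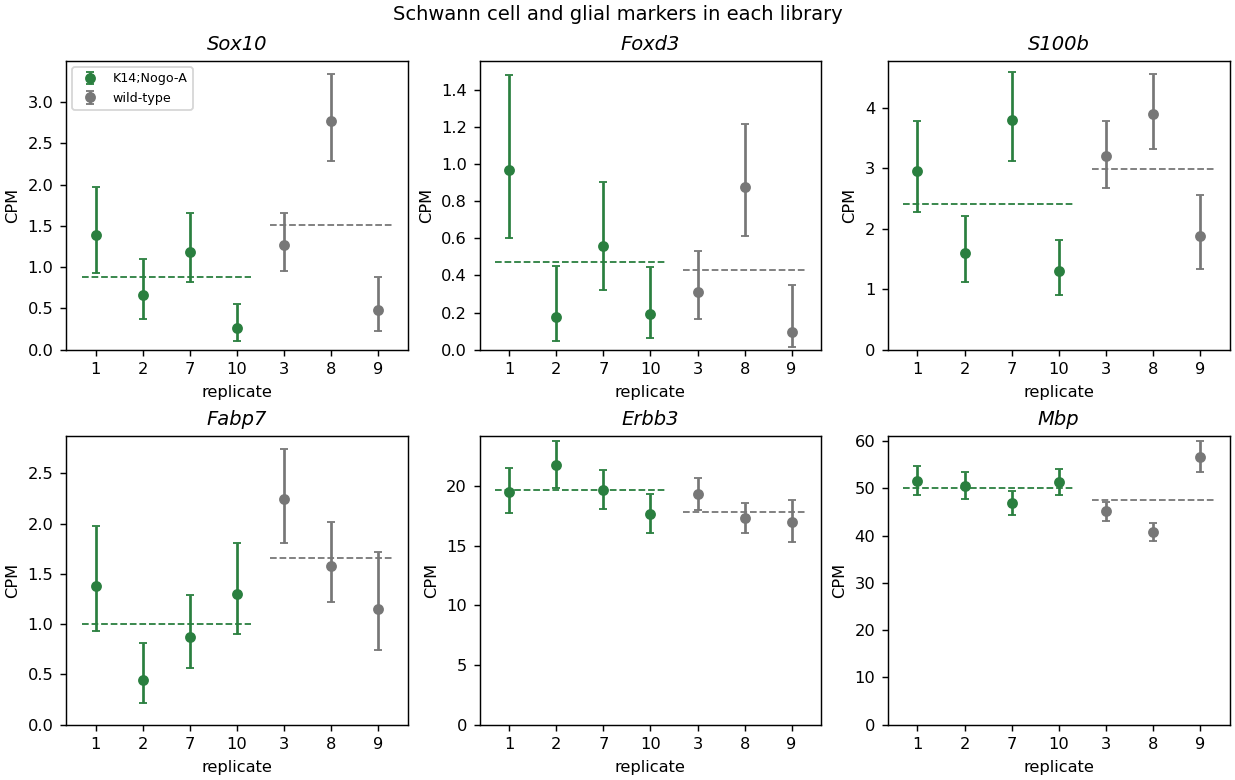
CPM (linear axes from 0) of the 6 markers in each library, K14;Nogo-A replicates in green and wild-type replicates in grey, with 95% Poisson intervals of the count as bars and the mean of each genotype as a dashed line. Sox10, Foxd3, S100b and Fabp7 differ several-fold between libraries, whereas Erbb3 stays between 17.0 and 21.7 CPM and Mbp between 40.7 and 56.6 CPM.

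Sox10 (ENSMUSG00000033006, GRCm38 chr15:79154908-79165240, minus strand) is the gene by which the lineage is defined. It had 1.38, 0.663, 1.19 and 0.267 CPM in K14;Nogo-A replicates 1, 2, 7 and 10, against 1.26, 2.78 and 0.480 CPM in wild-type replicates 3, 8 and 9, from 7 to 34 and 10 to 114 counts. Wild-type replicate 8 was far above the rest, K14;Nogo-A replicate 10 was the lowest, and the genotypes overlapped, with 5 of the 7 libraries between 0.480 and 1.38 CPM. The 95% Poisson intervals of these 2 libraries, 0.107 to 0.550 CPM for K14;Nogo-A replicate 10 and 2.29 to 3.34 CPM for wild-type replicate 8, were far apart. The log2 fold change was -0.84 (SE 0.58, edgeR adjusted p = 0.57) and an exact two-sided permutation test over all 35 allocations of genotype gave p = 0.457, where the smallest possible is 0.0286. Without wild-type replicate 8 the log2 fold change was -0.07, and without wild-type replicate 9 it was -1.20 and passed the study's thresholds.

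Foxd3 (ENSMUSG00000067261, chr4:99656299-99658622, plus strand) was the rarest of the 6. Its levels were 0.969, 0.177, 0.558 and 0.191 CPM in K14;Nogo-A replicates 1, 2, 7 and 10, against 0.310, 0.877 and 0.0961 CPM in wild-type replicates 3, 8 and 9. The lowest library, wild-type replicate 9, held 2 counts with an interval of 0.0116 to 0.347 CPM, so differences among the 4 lowest libraries were not detectable at this depth. The log2 fold change was 0.02 (SE 0.71, edgeR adjusted p = 1.00; exact permutation p = 0.771), and it ranged between -0.54 (K14;Nogo-A replicate 1 left out) and 1.04 (wild-type replicate 8 left out). The direction of Foxd3 was therefore set by single libraries.

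S100b (ENSMUSG00000033208, chr10:76253853-76261159, plus strand) had 2.95, 1.59, 3.80 and 1.30 CPM in K14;Nogo-A replicates 1, 2, 7 and 10, against 3.20, 3.90 and 1.87 CPM in wild-type replicates 3, 8 and 9. The genotypes shared most of their range, with 2 K14;Nogo-A libraries and 1 wild-type library low. The log2 fold change was -0.33 (SE 0.37, edgeR adjusted p = 0.75; exact permutation p = 0.457). Markers of cartilage, the other tissue known for S100b, had a summed level of 593 to 930 CPM for K14;Nogo-A, against 769 to 1053 CPM for wild-type libraries, and their part in the level of S100b was not tested.

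Fabp7 (ENSMUSG00000019874, chr10:57784881-57788450, plus strand) had the smallest P of the 6. It had 1.38, 0.442, 0.872 and 1.30 CPM in K14;Nogo-A replicates 1, 2, 7 and 10, against 2.24, 1.58 and 1.15 CPM in wild-type replicates 3, 8 and 9. Wild-type replicates 3 and 8 lay above every K14;Nogo-A library, and wild-type replicate 9 lay among them. The log2 fold change was -0.75 (SE 0.37, unadjusted P = 0.063, edgeR adjusted p = 0.42; exact permutation p = 0.171). It stayed negative with each library left out, between -0.94 and -0.47, and passed the study's thresholds when wild-type replicate 9 or either of K14;Nogo-A replicates 1 and 10 was left out. By edgeR's likelihood-ratio test, by limma-voom and with no filter on low counts it also passed them, with no adjusted p under 0.25 for any of the 6 genes in any alternative.

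Erbb3 (ENSMUSG00000018166, chr10:128567523-128589652, minus strand) was level over the pups. It had 19.5, 21.7, 19.6 and 17.6 CPM in K14;Nogo-A replicates 1, 2, 7 and 10, against 19.3, 17.3 and 17.0 CPM in wild-type replicates 3, 8 and 9. K14;Nogo-A replicate 10 lay within the wild-type range and the other 3 lay above it, replicates 1 and 7 by little. The log2 fold change was 0.13 (SE 0.11, edgeR adjusted p = 0.65; exact permutation p = 0.143).

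Mbp (ENSMUSG00000041607, chr18:82475146-82585637, plus strand) was the most abundant of the 6 per length. It had 51.6, 50.5, 46.8 and 51.3 CPM in K14;Nogo-A replicates 1, 2, 7 and 10, against 45.1, 40.7 and 56.6 CPM in wild-type replicates 3, 8 and 9. The K14;Nogo-A libraries lay inside the wild-type range. The log2 fold change was 0.08 (SE 0.12, edgeR adjusted p = 0.81; exact permutation p = 0.514). The files count reads per gene, and the annotation gives Mbp 16 transcripts, so that myelin and golli forms could not be separated.

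**Figure D2:**
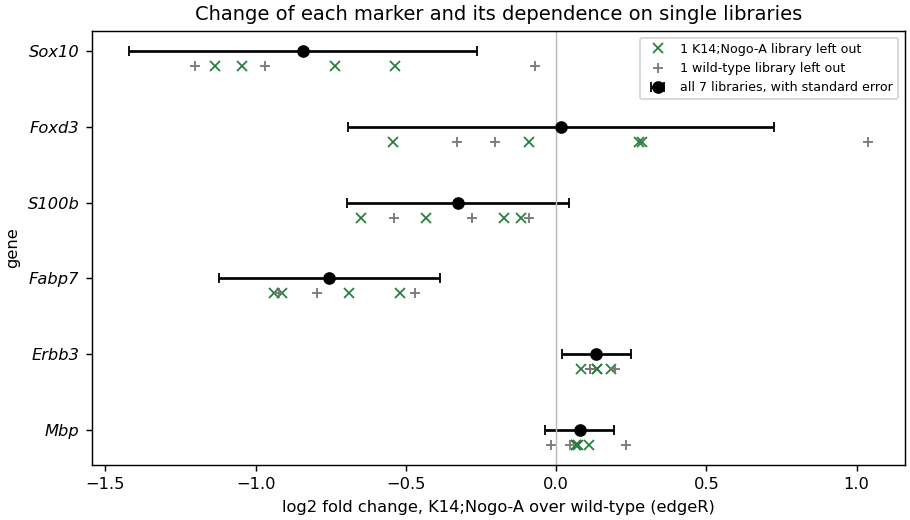
Log2 fold change of K14;Nogo-A over wild-type for the 6 markers from the edgeR fit, with the standard error as bars (black), and the same with 1 K14;Nogo-A library (green crosses) or 1 wild-type library (grey plus signs) left out. Erbb3 and Mbp lie near 0 with short bars, Sox10 runs between -1.20 and -0.07 and Foxd3 changes sign.

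The 6 markers differed in how far they varied among pups. The highest library exceeded the lowest 10.4-fold for Sox10, 10.1-fold for Foxd3, 5.07-fold for Fabp7 and 3.01-fold for S100b, but only 1.39-fold for Mbp and 1.28-fold for Erbb3. The biological coefficient of variation fitted by edgeR within genotypes was 51.8% for Sox10, where the median of 1563 genes of like count (0.5 to 2 times its mean count) was 23.2% and 1.41% of them had a larger value. For Foxd3 it was 56.7%, against a median of 27.2% with 1.14% of genes above, and for S100b 33.4%, against 20.3% with 4.95% above. Fabp7 varied less for its count (30.0%, with 16.3% of like genes above). Mbp and Erbb3 were ordinary at 12.0% each, with 40.6% and 76.2% of genes of like count above them.

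The libraries rich in Sox10 were also those rich in Foxd3 and S100b. In order of Sox10 the libraries ran wild-type replicate 8, K14;Nogo-A replicate 1, wild-type replicate 3, K14;Nogo-A replicate 7, K14;Nogo-A replicate 2, wild-type replicate 9 and K14;Nogo-A replicate 10. The first 4 of these were also the 4 highest of S100b and the 4 highest of Foxd3, so that each genotype held both high and low pups. Fabp7 and Erbb3 shared 3 of those 4 libraries and Mbp shared 1, its highest library being wild-type replicate 9 and its lowest wild-type replicate 8. The likeness of each profile to that of Sox10 was measured as the root mean square distance of the centred log2 CPM over the 7 libraries, a description with no test. It was 0.48 for S100b and 0.56 for Foxd3, with 2 and 9 genes nearer to Sox10 among the 12674 of mean count 50 or more, and 0.94, 0.96 and 1.06 for Erbb3, Fabp7 and Mbp, with 5484, 6068 and 10622 nearer. The median gene stood at 0.96. This distance reflects the size of the variation as well as the order of the libraries. A nearly level gene such as Erbb3 is therefore far from Sox10 whatever its order. Foxd3, with 2 to 36 counts, was rarer than the genes it was ranked against.

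The genes nearest to Sox10 among those with a mean count of at least 50 included Cldn11 at 0.39, A2m at 0.48, Rpl9-ps6 at 0.51 and Gm11361 at 0.52, the last 2 being retrogenes in the annotation, whose reads can belong to near-identical copies. Cldn11, a tight junction gene of oligodendrocyte myelin, had 1.94, 0.796, 2.62 and 0.801 CPM in K14;Nogo-A replicates 1, 2, 7 and 10, against 2.24, 3.56 and 1.06 CPM in wild-type replicates 3, 8 and 9. Its likeness to Sox10 is what chose it. Gjc3, a connexin of glia, was too rare for that ranking but had the same 4 highest libraries, at a distance of 0.33, with 8, 4, 16 and 1 counts in K14;Nogo-A and 23, 38 and 5 counts in wild-type libraries. Cdh19, a cadherin of Schwann cell precursors that was singled out after its values were seen, had 3, 2, 10 and 0 counts in K14;Nogo-A and 17, 20 and 2 counts in wild-type libraries. The genotypes overlapped for Cldn11, Gjc3 and Cdh19, with edgeR adjusted p = 0.63 for Cldn11, 0.50 for Gjc3 and 0.50 for Cdh19.

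**Figure D3:**
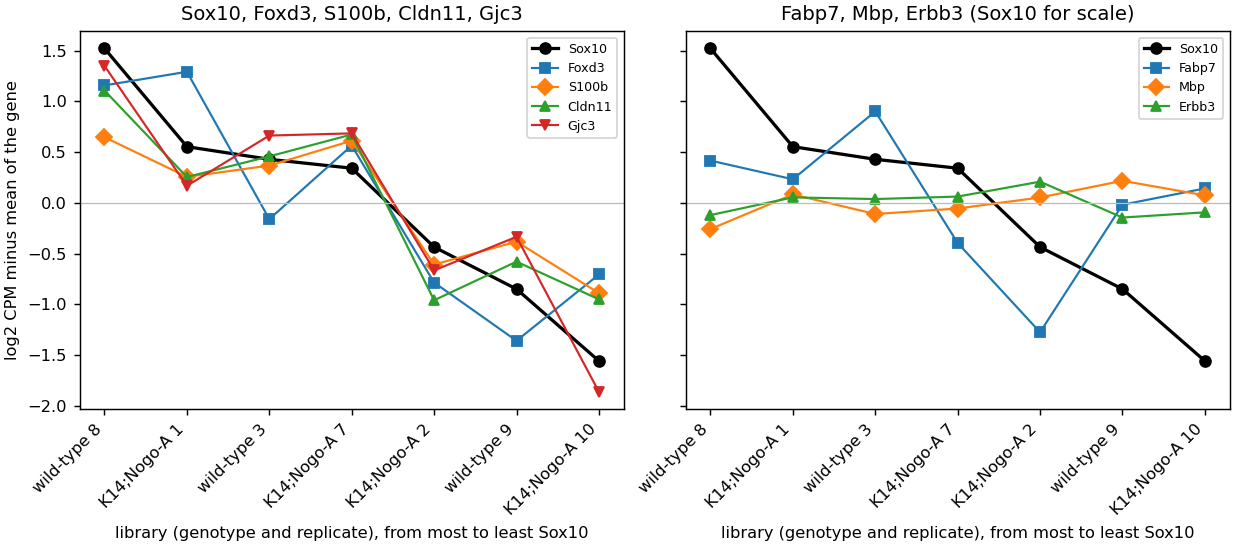
Log2 CPM minus the mean of the gene, with the 7 libraries ordered along the x axis from most to least Sox10 and genotypes mixed. Left, Foxd3, S100b, Cldn11 and Gjc3 are mostly high in the first 4 libraries and low in the last 3, as Sox10 is (Foxd3 lies just under its mean in wild-type replicate 3, and Cldn11 was chosen for its likeness to Sox10); right, Fabp7, Mbp and Erbb3 take other orders.

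The markers were not in a fixed ratio. S100b had 1.40 to 4.86 counts per count of Sox10 over the 7 libraries, whereas Erbb3 had 6.23 to 66 and Mbp 14.7 to 192. The highest Mbp ratio was in K14;Nogo-A replicate 10, the library with least Sox10, and the lowest in wild-type replicate 8, the library with most. The mean log2 CPM of 4 Y-linked genes was 5.27 (K14;Nogo-A replicate 1), 5.13 (wild-type replicate 3) and 4.94 (wild-type replicate 8) for the 3 libraries with most Sox10, and -3.71 to -3.04 in the other 4, and with that mean as a covariate the log2 fold change of Sox10 was -0.15. Immune markers followed the order of Sox10 only loosely. Their sums were highest in wild-type replicate 8 (138 CPM), K14;Nogo-A replicate 7 (119 CPM) and wild-type replicate 3 (89.5 CPM), which are also rich in Sox10. Wild-type replicate 9 (86.5 CPM) and K14;Nogo-A replicate 10 (82.5 CPM), the poorest in Sox10, came close to wild-type replicate 3. K14;Nogo-A replicate 1, second in Sox10, had 61.3 CPM, the lowest of the 7 libraries. The part of the Y-linked difference in the spread of Sox10 was not tested further.

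The start regions of the members that shared the library order of Sox10 are shown beside that of Fabp7, which did not. RefSeq (GRCm38.p6) gave them for 3 members, Foxd3 (chr4:99656049-99656299), S100b (chr10:76253586-76253836) and Fabp7 (chr10:57784673-57784923), each on the plus strand with 250 bases before the RefSeq start and the first transcribed base, which is the capital letter.
Foxd3: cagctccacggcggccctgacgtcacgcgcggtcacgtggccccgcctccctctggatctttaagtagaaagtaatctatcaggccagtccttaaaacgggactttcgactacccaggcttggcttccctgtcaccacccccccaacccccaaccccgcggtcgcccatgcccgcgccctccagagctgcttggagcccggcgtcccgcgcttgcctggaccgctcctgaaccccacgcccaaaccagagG
S100b: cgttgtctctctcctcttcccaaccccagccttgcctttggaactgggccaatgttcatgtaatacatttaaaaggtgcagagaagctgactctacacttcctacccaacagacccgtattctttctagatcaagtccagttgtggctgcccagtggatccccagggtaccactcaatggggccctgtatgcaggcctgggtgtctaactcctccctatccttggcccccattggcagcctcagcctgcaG
Fabp7: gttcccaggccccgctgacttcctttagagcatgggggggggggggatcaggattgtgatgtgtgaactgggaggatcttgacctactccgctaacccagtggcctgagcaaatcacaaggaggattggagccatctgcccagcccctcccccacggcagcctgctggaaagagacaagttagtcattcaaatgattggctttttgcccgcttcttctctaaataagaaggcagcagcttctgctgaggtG
The SOX-type motifs ACAAAG and ACAATG, read on both strands, had 0 matches in the 3 windows, and 25.3% of the 32851 RefSeq windows of this length held at least 1. That says only that these letters are not in these windows.

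Because nerve and mesenchyme can come along together, each marker was also taken relative to the mean log2 CPM of 24 mesenchyme markers. That mean was 6.66 to 6.81 for K14;Nogo-A, against 7.15 to 7.33 for wild-type libraries, without overlap, and 23 of the 24 genes had negative log2 fold changes (median -0.46, with -0.01 over all genes tested). Relative to it, Mbp was higher by 0.58 (means -1.11 ± 0.0833 for K14;Nogo-A, against -1.69 ± 0.329 for wild-type, SD, n = 4 and 3, exact permutation p = 0.0286) and Erbb3 by 0.62 (-2.46 ± 0.186 and -3.08 ± 0.121, exact permutation p = 0.0286). Both separated the genotypes completely, at the smallest p this design allows, unadjusted for the 6 genes compared. The mesenchyme mean alone separated the genotypes, so a gene at the same level in all 7 libraries would give the same p. This p therefore does not show a difference in Mbp or Erbb3 themselves. In CPM alone Mbp and Erbb3 differed by 0.09 and 0.13 log2 units, so that most of each relative difference was that of the mesenchyme markers. Sox10 (-0.15, exact permutation p = 0.857), S100b (0.12, p = 0.8), Fabp7 (-0.27, p = 0.657) and Foxd3 (0.70, p = 0.486) overlapped between the genotypes relative to mesenchyme. Relative to endothelium markers the differences of Mbp and Erbb3 were 0.43 and 0.48 (exact permutation p = 0.171 and 0.0857), and relative to epithelium markers -0.17 and -0.12 (p = 0.114 and 0.343).

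**Figure D4:**
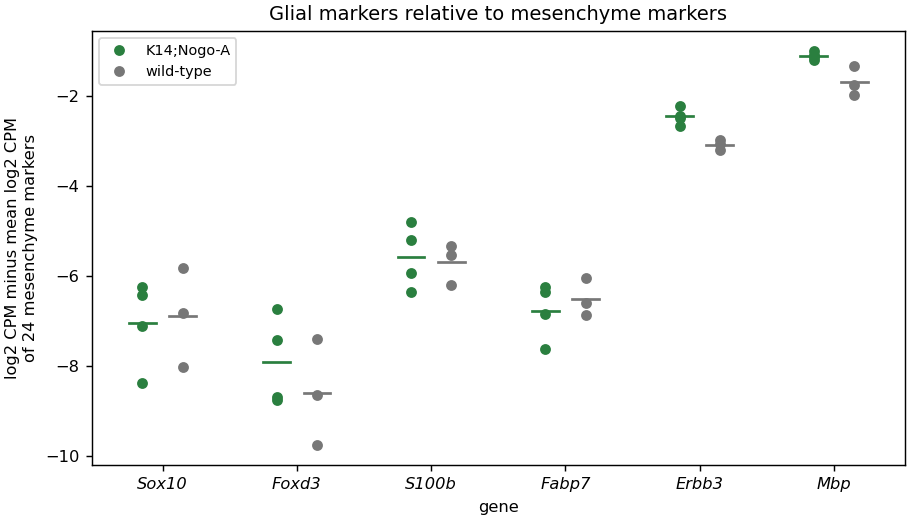
Log2 CPM of each glial marker minus the mean log2 CPM of 24 mesenchyme markers, 1 point per library, K14;Nogo-A (green) left of wild-type (grey), bars at the means. Mbp and Erbb3 separate the genotypes, with differences of 0.58 and 0.62, and the other 4 overlap. The mesenchyme mean that is subtracted separates the genotypes by itself.

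Among 30 genes of the Schwann cell lineage 27 were tested, and at the study's thresholds 1 was higher (2.02% of all genes) and 3 were lower (2.74% of all genes), with a median log2 fold change of -0.18. The lower ones were Zeb2, a repressor needed for Schwann cell maturation (23.3 ± 3.50 CPM for K14;Nogo-A, against 39.4 ± 5.75 for wild-type, SD, n = 4 and 3, log2 fold change -0.76, SE 0.14, edgeR adjusted p = 0.15), the adhesion molecule Ncam1 (42.7 ± 8.23 and 71.3 ± 12.6, -0.74, edgeR adjusted p = 0.17) and the low-affinity neurotrophin receptor Ngfr (62.3 ± 13.1 and 90.3 ± 19.0, -0.54, edgeR adjusted p = 0.28). All 3 are also made by mesenchyme. For Ngfr the paper reports the protein, P75/NGFR, in the epithelium of postnatal incisors, where pre-ameloblasts stained and functional ameloblasts did not. In each of the 3 the K14;Nogo-A libraries lay below every wild-type library, as 6.09% of all genes tested did (5.43% lay above). The higher one was Gfra3, the co-receptor for artemin, with 2.07 ± 0.739 CPM for K14;Nogo-A, against 1.25 ± 0.349 for wild-type (0.76, edgeR adjusted p = 0.36).

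Myelin genes had no common direction. Of 24 listed, 14 were tested, 8 with positive and 6 with negative log2 fold changes, Gjb1 and Mog were at 0 in every library, and the median was 0.03. Pmp22, a myelin protein that many mesenchymal and epithelial cells also make, was lower (49.1 ± 11.9 CPM for K14;Nogo-A, against 78.9 ± 13.9 for wild-type, -0.69, edgeR adjusted p = 0.22), as was Drp2 of the myelin sheath (13.7 ± 4.71 and 21.7 ± 1.52, -0.67, edgeR adjusted p = 0.26). Mag, a receptor-like protein of myelin, had 0 to 4 counts for K14;Nogo-A, against 2 to 6 for wild-type libraries, and Egr2, the switch to myelination, 3 to 22 and 7 to 30 counts.

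Of the neuregulin ligands and ErbB receptors, 11 of 14 were tested and 1 passed the study's thresholds, as 4.77% of all genes did. Nrg1, the neuregulin that signals through Erbb3, had 1.06, 2.39, 1.85 and 1.79 CPM in K14;Nogo-A replicates 1, 2, 7 and 10, against 0.787, 1.34 and 0.720 CPM in wild-type replicates 3, 8 and 9. Replicate 1 fell within the wild-type range and the other 3 above it (log2 fold change 0.87, SE 0.33, edgeR adjusted p = 0.31). Nrg1 no longer passed when K14;Nogo-A replicate 2, wild-type replicate 3 or wild-type replicate 9 was left out, or with the mesenchyme or the Y-linked covariate. Erbb2, the partner without which Erbb3 signals poorly, was much more abundant than Erbb3 per length, at 16.1 ± 1.80 CPM per kb for K14;Nogo-A, against 14.5 ± 1.40 for wild-type, with a log2 fold change of 0.16 (edgeR adjusted p = 0.57).

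In each of the 3 families of the members 1 tested gene passed the study's thresholds, as 4.77% of all genes tested did. Of 17 SoxE and neural crest transcription factors 15 were tested, Zic1 was at 0 in every library, the median was -0.15 and 1 was lower at the study's thresholds, Snai1, a factor of neural crest emigration (31.6 ± 3.14 CPM for K14;Nogo-A, against 45.5 ± 6.26 for wild-type, -0.53, edgeR adjusted p = 0.18). Of 13 fatty acid-binding proteins 7 were tested, 4 (Fabp1, Fabp2, Fabp6 and Fabp9) were at 0 in every library, and 6 of the 7 had negative log2 fold changes with a median of -0.29. Only Fabp3 of heart and muscle passed the study's thresholds in this family (0.697 ± 0.431 CPM for K14;Nogo-A, against 1.41 ± 0.317 for wild-type, -1.03, edgeR adjusted p = 0.34). Of 17 S100 proteins 13 were tested with a median of 0.04, and S100a14, an epithelial member, was higher (39.4 ± 4.75 and 25.1 ± 4.44 CPM, 0.66, edgeR adjusted p = 0.17). In 3 of the 13 every K14;Nogo-A library lay above every wild-type library, as 5.43% of all genes tested did, and in 0 below. Among the 15 transcription factors 2 lay wholly below, as 6.09% of all genes did, and 0 above.

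Markers of the other cells a nerve could bring ranged widely in level. Of 24 axon and sensory neuron markers 11 were tested and 0 passed the study's thresholds (median 0.07), and the list summed to 526 to 653 CPM for K14;Nogo-A, against 498 to 600 CPM for wild-type libraries. Isl1, a transcription factor of sensory neurons, averaged 85.6 ± 5.15 CPM for K14;Nogo-A, against 77.3 ± 2.87 for wild-type, Uchl1 30.0 ± 4.99 and 24.02 ± 2.25, Stmn2 16.5 ± 3.15 and 14.9 ± 4.45, and Avil 6.95 ± 1.33 and 9.16 ± 2.46. The neurofilament gene Nefl had 0 to 2 counts for K14;Nogo-A, against 2 to 4 for wild-type libraries, and peripherin (Prph) 0 to 2 and 1 to 2, while the neuronal tubulin Tubb3 stood at 384 to 518 CPM and 362 to 469 CPM. Tubb3 thus made up most of the sum of this list. Of 12 melanocyte markers, cells that share Sox10 with Schwann cells, 5 were tested and 0 passed (median 0.04), and Tyr, the defining pigment enzyme, had 0 to 2 counts in K14;Nogo-A and 0 in every wild-type library. Other genes of that list were detected, with Dct at 11.9 ± 2.63 CPM for K14;Nogo-A, against 9.51 ± 1.87 for wild-type. Kit averaged 20.1 and 20.9 CPM, Mitf 6.17 and 6.69 and Trpm1 5.07 and 4.62, whereas 6 of the 12 had no count in at least 1 library. Of 12 markers of central glia 5 were tested and 0 passed (median -0.23), with Olig2, Mog and Opalin at 0 in every library and the proteoglycan gene Cspg4 at 62.0 ± 6.89 CPM for K14;Nogo-A, against 73.0 ± 6.78 for wild-type. The 12 perineurium and endoneurium markers summed to 1080 to 1382 CPM for K14;Nogo-A, against 1010 to 1299 CPM for wild-type libraries. Of these 9 were tested with a median of -0.17, where Cldn1 was higher (0.94, edgeR adjusted p = 0.32) and Abca9 (-0.72, 0.17) and Ntn1 (-0.58, 0.34) were lower at the study's thresholds. Bulk RNA does not show whether nerve or the epithelium itself made Isl1, Uchl1, Tubb3 or Cldn1, so these sums do not measure nerve alone.

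Markers of other tissues were counted in the same way. At the study's thresholds, which 2.74% of all genes passed as lower and 2.02% as higher, 5 of 24 mesenchyme, 4 of 12 endothelium (median -0.33), 3 of 12 immune (median -0.33) and 1 of 8 tested cartilage markers (median -0.45) were lower in K14;Nogo-A, and 3 of 15 epithelium (median 0.25), 4 of 12 ameloblast (median 0.98) and 1 of 8 tested skeletal muscle markers (median 0.31) were higher. With 1 library left out, the genes past these thresholds numbered 5 to 9 for mesenchyme, 1 to 4 for cartilage and skeletal muscle each, 0 to 6 for endothelium, immune and ameloblast markers each and 0 to 5 for epithelium, and no test compared the lists with the 6 glial markers. None of these lists had a gene with an edgeR adjusted p under 0.05, where 5 genes had in all. Mesenchyme markers summed to 12007 to 33812 CPM for K14;Nogo-A, against 27654 to 42246 CPM for wild-type, and endothelium markers to 326 to 484 CPM, against 466 to 492 CPM. The part of this difference in tissue make-up in the values of the 6 glial markers was not tested beyond the ratios above.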

How the data were processed

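Polyadenylated RNA of 7 libraries was sequenced. The authors deposited raw read counts for each Ensembl gene, obtained with bcl2fastq 2.19, Trimmomatic (submitters' notes) or fastp (paper), STAR 2.7.1 on GRCm38 and featureCounts; the strand setting was not given in the sources read. Totals were 20929207 to 41219439, and Poisson 95% intervals (scipy 1.17.1) cover counting error only. GENCODE M21 gave symbols and exon lengths for 25664 of 25700 IDs, the others holding 0.0348% of counts.

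A gene needed 10 or more counts in 50% or more of the libraries of a genotype, and the 14791 that met this were tested with edgeR 4.0.16 in R 4.3.3 (TMM, robust quasi-likelihood, Benjamini-Hochberg over all genes), a procedure tested on simulated data. The prior count of log2 CPM was 2. Each exact two-sided permutation test took all 35 splits. No 2 libraries were duplicates (lowest chi-square per degree of freedom 15.9).

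The members, 6 pathway lists and 11 marker lists were chosen with earlier results of these data known. Named were the members, from each list up to 4 tested genes of smallest P (some are not reported here), and the 5 genes of mean count at least 50 nearest to Sox10. Pmp22, Ngfr, Nrg1 and others with values per library come from these lists; Tubb3, Nefl, Prph, Tyr, Mag and Egr2 are defining markers of theirs. Alternatives were other scalings, filters and tests (likelihood ratio, DESeq2 1.42.0, limma-voom 3.58.1), covariates, another denominator, a prior count of 0.5 and each library left out.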

Additional observations from a re-analysis of the deposited data

How the results depend on the processing

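Of 100 alternative fits of the 6 markers 90 kept their direction and 10 reversed; the smallest adjusted p was 0.25. With the mesenchyme mean as a covariate the log2 fold changes turned to 3.68 for Sox10, 1.84 for S100b, 2.07 for Fabp7, -0.62 for Mbp and -0.24 for Erbb3; the genotypes do not overlap in that covariate, so that this fit extrapolates. Members past the study's thresholds numbered 1 with the likelihood-ratio test, limma-voom or no filter (Fabp7) and with the mesenchyme covariate (Foxd3), and 0 to 2 with a library left out, 2 being Fabp7 and Sox10 without wild-type replicate 9, where Mbp also had an unadjusted P under 0.05. Over all genes 5 were called, and 166 with the likelihood-ratio test, 288 with DESeq2, 21 with no filter, 0 with the mesenchyme and 9 with the Y-linked covariate, and 0 to 221 with a library left out, when 386 to 1076 passed the study's thresholds. The denominator changed the relative differences: over endothelium Mbp gave 0.43, Erbb3 0.48 and S100b -0.026, and over epithelium -0.17, -0.12 and -0.62, with Foxd3 at -0.043.

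With 1 library left out, log2 fold changes ran -0.018 to 0.23 for Mbp (negative only without wild-type replicate 8) and -0.54 to 1.04 for Foxd3, and log2 CPM differences -0.015 to 0.22 and -0.41 to 0.85. Relative to mesenchyme they ran 0.43 to 0.76 for Mbp, 0.54 to 0.69 for Erbb3, -0.72 to 0.38 for Sox10, -0.13 to 0.39 for S100b and -0.45 to 0.020 for Fabp7; with 3 against 3 or 4 against 2 libraries the exact test cannot go below 0.1 or 0.0667. Requiring 10 counts in every library left Sox10 and Foxd3 untested. DESeq2 gave Sox10 and Foxd3 no adjusted p. The other causes were not tested. The paper describes the controls as littermates, but the sample titles match no K14;Nogo-A pup to a wild-type pup. No paired analysis was therefore made. Depth limits Foxd3 and Sox10, at 2 to 36 and 7 to 114 counts.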
